A study of Mus musculus with 19 samples.

Results

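The transcripts described here come from 10 genes of the Nrf2 and glutathione antioxidant system, measured by RNA sequencing in whole mouse kidney. They were chosen by name, as the transcription factor gene Nfe2l2 and 9 genes of the enzymes around it (Nqo1, Gclc, Gclm, Gsr, Gpx1, Gpx3, Txnrd1, Srxn1 and Ggt1), and all 10 were found among the 54146 gene identifiers of the deposited tables. Animals called KspCre DKO carried floxed Dnmt3a and Dnmt3b, the genes of both de novo DNA methyltransferases, together with a Cre recombinase whose Ksp-cadherin promoter drives it in tubule epithelial cells. They gave 2 libraries. The control animals carried the same floxed genes without Cre and gave 3 libraries. All were of strain B6C3F1/J and were sampled at 3 weeks, postnatal day 21. Whether the libraries of 1 group were made from different animals is not stated in the labels, and p-values here reflect library-to-library spread, which may be technical. The promoter limits Cre to tubule epithelium, so every whole-kidney library also holds cells without recombination.

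Nrf2, the protein of Nfe2l2, is a transcription factor that Keap1 holds at low levels by marking it for breakdown. Oxidants and electrophiles release it, and it then binds antioxidant response elements as a partner of small Maf proteins. Its classical targets make glutathione, keep glutathione and thioredoxin in reduced form, and remove quinones and peroxides. The kidney tubule is rich in mitochondria, secretes the plasma glutathione peroxidase Gpx3, and breaks down filtered glutathione at the brush border through Ggt1.

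No member passed the test between KspCre DKO and control kidneys: 0 of 10 members were called by limma at an adjusted p below 0.05, where 0.165% of all 13963 tested genes were called. In the same fit 0 of 10 members had an unadjusted p below 0.05 in either direction, against 4.16% of all tested genes higher and 6.15% lower in KspCre DKO kidneys. The members' log2 fold changes, KspCre DKO minus control on log2(TPM + 1), ran from −0.34 for Gclm to 0.48 for Nqo1 and Gpx3. Of the 10 members, 6 lay above 0 and 4 below, with a median of 0.05, beside a median of −0.14 over all tested genes; 8 lay above 0 with median-of-ratios scaling and 9 with quantile normalization. For none of the 10 genes did the difference between groups pass the test against the spread between these libraries. The width of the intervals given with each gene sets how large a difference could have been missed.

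The values are TPM, transcript abundances per length scaled to a fixed sum in each library, so levels may be compared between genes but the depth of each library is unknown. Per length, Gpx3 was the most abundant member in every library, between 7214 and 15967 TPM. It ranked between 9 and 16 among all genes of a library. Gpx1, between 504 and 1874 TPM, and Ggt1, between 692 and 975 TPM, came next and overlapped each other, with Gpx1 above Ggt1 in 3 of 5 libraries. Gclm followed at 142 to 232 TPM and overlapped neither of its neighbours. Gclc, Nfe2l2 and Nqo1 formed an overlapping run, at 55.6 to 87.6, 47.4 to 65.3 and 29.0 to 55.7 TPM, although Gclc lay above Nfe2l2 in 5 of 5 libraries. Gsr and Txnrd1 overlapped at 15.4 to 36.1 and 16.3 to 30.4 TPM. The range of Gsr also overlapped that of Nqo1, although Nqo1 lay above Gsr in 5 of 5 libraries. Srxn1 was lowest at 11.6 to 17.9 TPM. Its range overlapped that of Txnrd1, but it lay below Txnrd1 in 5 of 5 libraries. Together the 10 transcripts summed to 18997 and 9620 TPM in KspCre DKO libraries, against 11935, 10100 and 9438 TPM in control libraries. Gpx3 alone made up 84.1% and 81.6% of that sum in KspCre DKO libraries, and 74.3%, 80.4% and 76.4% in control libraries.

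**Figure D1:**
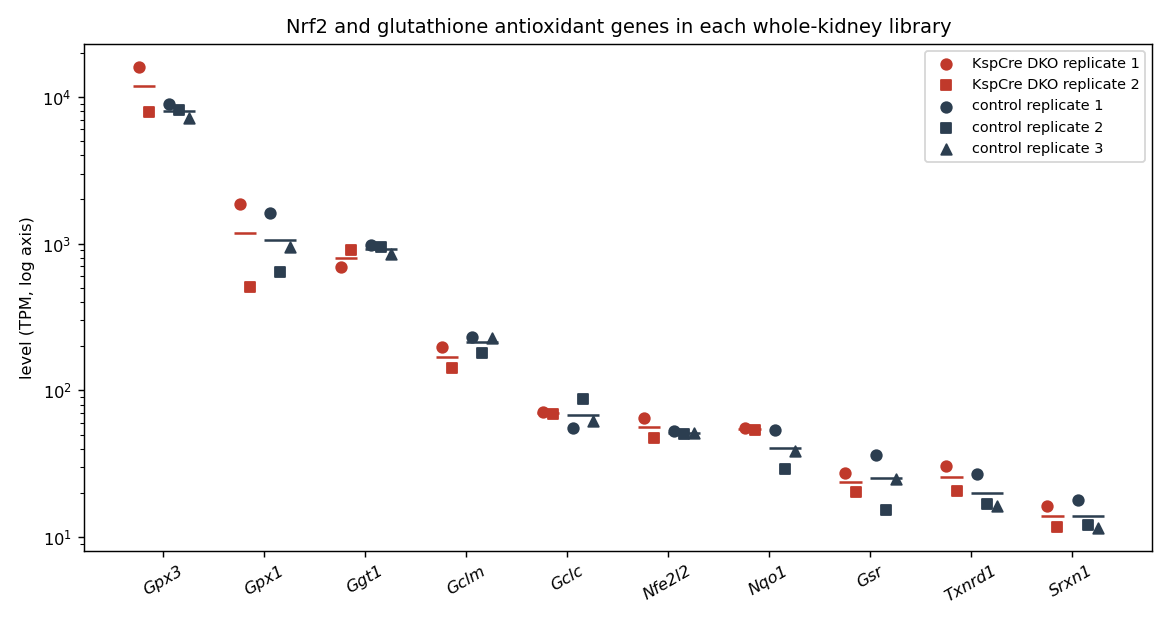
TPM of each of the 10 genes (log axis, in TPM) in each library, with the 2 KspCre DKO libraries on the left of each gene in red and the 3 control libraries on the right in dark blue. Horizontal bars are group means, and only Nqo1 has all KspCre DKO points above all control points.

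The libraries were not equally complex, which touches every value here. KspCre DKO replicate 2 had 14710 genes above 0 TPM and 31.0% of its TPM in mitochondrially encoded genes, while the other 4 libraries had 18488 to 20510 genes and 18.2% to 23.2%. The targeted genes did not tell the groups apart, because Dnmt3a had 9.98 and 14.2 TPM under the KspCre DKO label and 13.2, 18.97 and 15.5 TPM in controls (log2 fold change −0.37 ± 0.31 SE, limma adjusted p = 0.709). Dnmt3b had 2.29 and 3.25 TPM under the KspCre DKO label and 1.82, 2.86 and 1.98 TPM in controls (log2 fold change 0.23 ± 0.38 SE, limma adjusted p = 0.866). TPM of a whole gene do not show whether a floxed exon is missing, so each direction below rests on the labels. In the whole fit 14 genes were called higher and 9 lower, a split that became 24 and 7 when the libraries were scaled by median of ratios, and 35 and 7 after quantile normalization. Quantile normalization also moved the median of all genes to −0.02, so directions of members near 0 are relative to the scaling.

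Nfe2l2 (ENSMUSG00000015839.6, GRCm38.p6 chromosome 2, 75675513 to 75704663) stood at 65.3 and 47.4 TPM in KspCre DKO kidneys, against 52.7, 50.2 and 51.0 TPM in control kidneys. The 3 control libraries lay within 1.05-fold of each other, and the KspCre DKO libraries lay on either side of them. Its log2 fold change was 0.11 ± 0.27 (SE), with a 95% interval of −0.50 to 0.73 (limma adjusted p = 0.909). Nrf2 is controlled mainly through protein stability, which these data do not measure.

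For the regulators of Nrf2 that were fixed as anchors, the difference between groups did not pass the test either. Their intervals on the log2 scale ran from −0.58 to 0.70 for Keap1 and from −0.58 to 0.94 for Bach1. A difference within these limits could have been missed. Keap1, the adaptor that marks Nrf2 for breakdown, stood at 16.7 and 14.9 TPM in KspCre DKO kidneys, against 14.97, 13.8 and 16.8 TPM in control kidneys (log2 fold change 0.06 ± 0.28 SE, limma adjusted p = 0.959). Bach1, a repressor that competes for the same elements, stood at 3.71 and 4.10 TPM in KspCre DKO kidneys and at 3.04, 3.45 and 3.49 TPM in control kidneys (log2 fold change 0.18 ± 0.33 SE, limma adjusted p = 0.879). The groups did not overlap for Bach1, but its standard error was larger than its difference. Over the list of 16 regulators and partners, 14 were tested and 0 called, and the median log2 fold change was 0.04. At a limma unadjusted p below 0.05, 0 were lower, beside 6.15% of all tested genes, and 1 was higher, beside 4.16%. That gene was Nfe2l3, an Nrf2 relative, at 9.15 and 1.92 TPM in KspCre DKO kidneys and 1.97, 0.31 and 1.10 TPM in controls (log2 fold change 1.43 ± 0.60 SE, limma adjusted p = 0.468), and 1 KspCre DKO library carried that difference. Next in order of p came Palb2, a BRCA2 partner that binds Keap1, and the small Maf genes Maff and Mafg, with log2 fold changes of −0.96, 0.81 and −0.55 and limma adjusted p of 0.544, 0.548 and 0.7. Palb2 was listed at 0 in KspCre DKO replicate 2.

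Across the 5 libraries, the pathway genes whose pattern lay closest to that of Nfe2l2, among 100 compared, were Gsk3b, G6pdx and Trim21. Their root mean square differences from Nfe2l2 on the log2(TPM + 1) scale, each gene centred on its own mean, were 0.074, 0.102 and 0.104. With 5 libraries this likeness is a description, and the libraries share their composition.

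The antioxidant response element has the core TGACNNNGC, with TGAGNNNGC as a variant. It was searched on both strands of the RefSeq promoter windows of GRCm38.p6, from 250 bases before to 50 bases after each annotated start, to show which members carry its letters at the start. The table held 13 windows for 8 members, and Gclc and Gsr are named only. Of the 13 windows, 7 held either core (53.8%), against 27.8% of all 32851 windows, and they belonged to Gclm, Ggt1, Nfe2l2, Srxn1 and Txnrd1. The complete form TGACTCAGC or TGAGTCAGC, which also holds the AP-1 motif TGANTCA, stood in 1 of the 13 windows, that of Srxn1, against 0.822% of all windows. Among the other measured pathway genes it stood in 3 of 120 windows (2.5%), those of Me1, Osgin1 and Prdx1. The sequences below show the complete form in these 4 genes and a core match of 4 other members. Each runs 5′ to 3′ on the gene's own strand, and the 9 bases of the match are in capitals, read from the opposite strand in Osgin1, Prdx1, Gclm, Ggt1 and Txnrd1.
Srxn1, chr2:152105459-152105507, plus strand: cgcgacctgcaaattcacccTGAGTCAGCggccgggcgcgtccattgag
Me1, chr9:86695892-86695940, minus strand: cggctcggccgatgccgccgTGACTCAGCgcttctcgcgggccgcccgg
Osgin1, chr8:119437028-119437076, plus strand: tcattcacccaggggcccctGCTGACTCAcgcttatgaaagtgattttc
Prdx1, chr4:116685446-116685494, plus strand: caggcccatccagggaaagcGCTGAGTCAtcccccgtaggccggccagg
Nfe2l2, chr2:75704875-75704913, minus strand: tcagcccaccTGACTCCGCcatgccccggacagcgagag
Gclm, chr3:122245403-122245451, plus strand: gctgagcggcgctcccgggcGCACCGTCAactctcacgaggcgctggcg
Txnrd1, chr10:82859094-82859142, plus strand: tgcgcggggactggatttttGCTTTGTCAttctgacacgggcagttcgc
Ggt1, chr10:75568606-75568654, plus strand: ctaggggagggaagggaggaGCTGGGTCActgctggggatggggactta
A match is a run of letters and not a shown binding site, and the window of Nqo1 held none, which says nothing of elements outside it. The 4 genes with the complete form, of which Me1 and Osgin1 are named for it, had log2 fold changes of 0.03 (Srxn1), 0.02 (Me1), 0.31 (Osgin1) and −0.42 (Prdx1), each with an interval across 0.

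Among the enzymes that act on quinones and sulfinic acids, Nqo1 was the only member whose groups did not overlap. Nqo1 (ENSMUSG00000003849.8, chromosome 8, 107388225 to 107403205), the quinone reductase most often read as a sign of Nrf2 activity, stood at 55.7 and 53.9 TPM in KspCre DKO kidneys, against 53.5, 29.0 and 38.4 TPM in control kidneys. Both KspCre DKO libraries thus lay above every control library, but control replicate 1 came within 1 TPM of the lower. Such a separation upward was seen in 1 of 10 members, where 10.5% of all tested genes showed it, and a separation downward in 0 of 10, where 15.6% did. Its log2 fold change was 0.48 ± 0.32 (SE), with a 95% interval of −0.25 to 1.20 (limma adjusted p = 0.644). Without control replicate 1 or 2 it ranged up to 0.70 or down to 0.27, and it did not pass the test in either case. Srxn1 (ENSMUSG00000032802.8, chromosome 2, 152105524 to 152111376), sulfiredoxin, which repairs overoxidized peroxiredoxins, stood at 16.4 and 11.7 TPM in KspCre DKO kidneys, against 17.9, 12.0 and 11.6 TPM in control kidneys. Each group held 1 higher library, and the log2 fold change was 0.03 ± 0.33 (SE), with an interval of −0.72 to 0.77 (limma adjusted p = 0.985).

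Glutathione is made from glutamate and cysteine by glutamate-cysteine ligase, whose catalytic subunit is Gclc and whose modifier subunit is Gclm. Gclc (ENSMUSG00000032350.9, chromosome 9, 77754535 to 77794489) stood at 71.5 and 69.2 TPM in KspCre DKO kidneys, against 55.6, 87.6 and 62.2 TPM in control kidneys. The KspCre DKO libraries sat close together inside the control range, with a log2 fold change of 0.07 ± 0.29 (SE) and an interval of −0.59 to 0.72 (limma adjusted p = 0.953). Gclm (ENSMUSG00000028124.15, chromosome 3, 122245487 to 122267215) stood at 198 and 142 TPM in KspCre DKO kidneys, against 232, 181 and 229 TPM in control kidneys. It had the lowest fold change of the 10 members, −0.34 ± 0.27 (SE) on the log2 scale, with an interval of −0.95 to 0.27 (limma adjusted p = 0.691), and control replicate 2 lay between the KspCre DKO libraries. The level of Gclm over that of Gclc was 2.76 and 2.05 in KspCre DKO libraries, against 4.17, 2.07 and 3.68 in control libraries. That ratio also overlapped, because control replicate 2 was about as low as KspCre DKO replicate 2.

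Gss, glutathione synthetase, which completes the molecule, stood at 135 and 117 TPM in KspCre DKO kidneys, against 178, 158 and 168 TPM in control kidneys. Its groups did not overlap, but the difference, −0.41 ± 0.24 (SE) on the log2 scale, did not pass (limma adjusted p = 0.592). The list of glutathione supply, breakdown and use had 28 genes, 23 tested identifiers and 0 calls. Of the 23, 4 lay above 0 and 19 below, with a median log2 fold change of −0.42, the lowest of the 6 pathway lists, and 4 were lower at an unadjusted p below 0.05, beside 6.15% of all tested genes. The groups did not overlap for 9 of the 23 downward, beside 15.6% of all tested genes, and for 1 upward, beside 10.5%. With median-of-ratios scaling or quantile normalization 17 of the 23 lay below 0. Ggct, which handles gamma-glutamyl amino acids, was at 28.3 and 15.2 TPM in KspCre DKO kidneys and 41.95, 32.8 and 45.6 TPM in controls (log2 fold change −0.90 ± 0.34 SE, limma adjusted p = 0.407). Glrx5, a mitochondrial glutaredoxin of iron-sulfur cluster assembly, was at 48.3 and 40.5 TPM in KspCre DKO kidneys and 86.6, 58.6 and 80.3 TPM in controls (log2 fold change −0.73 ± 0.28 SE, limma adjusted p = 0.425). Neither overlapped between groups, whereas Anpep, a brush border peptidase, did, at 182 and 63.0 TPM in KspCre DKO kidneys and 176, 342 and 314 TPM in controls (log2 fold change −1.31 ± 0.47 SE, limma adjusted p = 0.386). Without KspCre DKO replicate 1 the log2 fold change of Anpep was −2.06, and without replicate 2 it was −0.55. For Ggct these values were −1.33 and −0.48. Chac2, which degrades glutathione in the cytosol, was at 10.7 TPM and listed at 0 in KspCre DKO kidneys, and at 16.6, 14.4 and 18.8 TPM in controls (limma adjusted p = 0.386), so its difference rests largely on the exact 0 in KspCre DKO replicate 2.

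Ggt1 (ENSMUSG00000006345.10, chromosome 10, 75561076 to 75586193), the brush border enzyme that starts the breakdown of extracellular glutathione, stood at 692 and 901 TPM in KspCre DKO kidneys, against 975, 950.4 and 849 TPM in control kidneys. KspCre DKO replicate 1 was the lowest of the 5 libraries and replicate 2 lay inside the control range. Its log2 fold change was −0.23 ± 0.23 (SE), the most precise of the 10 members, with an interval of −0.75 to 0.30 (limma adjusted p = 0.764), and quantile normalization turned its sign. Summed proximal tubule markers, the cell type of the brush border, were at 12366 and 6604 TPM in KspCre DKO libraries, against 11181, 9940 and 9155 TPM in control libraries. Ggt1 stood lowest in the library where that sum was highest, but single markers did not all follow the sum. Among the 17 tested markers, only Slc7a13 was also lowest there, at 12.9 TPM, and most were highest there. In the comparison of the groups, 8 of the 17 had a log2 fold change above 0 and 9 below. The part of cell composition in the Ggt1 level was not tested. In whole kidney, fewer cells of a type and less RNA per cell cannot be told apart.

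Reduced glutathione and thioredoxin are regenerated by Gsr and Txnrd1, both at the expense of NADPH. Gsr (ENSMUSG00000031584.16, chromosome 8, 33653238 to 33698162), glutathione reductase, stood at 27.4 and 20.4 TPM in KspCre DKO kidneys, against 36.1, 15.4 and 24.95 TPM in control kidneys. The control libraries spread over 2.34-fold and enclosed both KspCre DKO libraries, and the log2 fold change was −0.02 ± 0.38 (SE), with an interval of −0.90 to 0.85 (limma adjusted p = 0.99). Txnrd1 (ENSMUSG00000020250.10, chromosome 10, 82833951 to 82897724), the cytosolic thioredoxin reductase and a selenoprotein, stood at 30.4 and 20.7 TPM in KspCre DKO kidneys, against 26.95, 16.8 and 16.3 TPM in control kidneys. Control replicate 1 lay between the KspCre DKO libraries, and the log2 fold change was 0.35 ± 0.34 (SE), with an interval of −0.43 to 1.12 (limma adjusted p = 0.749). Its substrate gene Txn1 overlapped as well, at a log2 difference of 0.18 ± 0.30 (SE) and a limma adjusted p of 0.87.

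The glutathione peroxidases Gpx1 and Gpx3 were the members that differed most within the KspCre DKO group. Gpx1 (ENSMUSG00000063856.7, chromosome 9, 108339080 to 108340342), the cytosolic selenoenzyme that reduces hydrogen peroxide, stood at 1874 and 504 TPM in KspCre DKO kidneys, against 1617, 641 and 942 TPM in control kidneys. The highest and the lowest of the 5 libraries were both KspCre DKO, 3.72-fold apart, while the controls spread over 2.52-fold. The group means were 1189 ± 969 TPM (SD, n = 2) in KspCre DKO kidneys and 1067 ± 499.5 TPM (SD, n = 3) in control kidneys. Its log2 fold change was −0.03 ± 0.56 (SE), with an interval of −1.30 to 1.24 (limma adjusted p = 0.992), the widest interval of the 10 members. With KspCre DKO replicate 1 as the only KspCre DKO library the log2 fold change was 0.92, and with replicate 2 alone it was −0.98. Gpx1 is abundant in red cells, and summed red cell markers were at 8520 and 9903 TPM in KspCre DKO libraries, against 8344, 997 and 3504 TPM in control libraries. KspCre DKO replicate 2 had the highest red cell sum and the lowest Gpx1, while in the other libraries Gpx1 and the red cell sum stood in the same order. The part of red cells in the Gpx1 level was not tested.

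Gpx3 (ENSMUSG00000018339.11, chromosome 11, 54902854 to 54910387), the secreted plasma glutathione peroxidase, stood at 15967 and 7849.85 TPM in KspCre DKO kidneys, against 8869, 8116 and 7214 TPM in control kidneys. KspCre DKO replicate 1 was the highest library, and replicate 2 lay inside the narrow control range of 1.23-fold. The group means were 11908 ± 5739.7 TPM (SD, n = 2) in KspCre DKO kidneys and 8066 ± 829 TPM (SD, n = 3) in control kidneys, and the log2 fold change was 0.48 ± 0.30 (SE), with an interval of −0.21 to 1.16 (limma adjusted p = 0.621). Without KspCre DKO replicate 2 it was 0.99, beside a median of 0.13 over all tested genes. Without replicate 1 it was −0.03, beside a median of −0.39, so on the TPM scale 1 library carried the difference. With median-of-ratios scaling the log2 fold change of Gpx3 was 0.59 (limma unadjusted p = 0.043, adjusted p = 0.352). Among the alternatives that kept both KspCre DKO libraries, no other gave a member an unadjusted p below 0.05. Gpx3 over Gpx1 was 8.52 and 15.6 in KspCre DKO libraries, against 5.49, 12.7 and 7.66 in control libraries. In KspCre DKO replicate 1, Gpx3, Gpx1, Txnrd1, Nfe2l2 and Nqo1 all had their highest level of the 5 libraries, and proximal tubule markers their highest sum. The part of cell composition in these levels was not tested.

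**Figure D2:**
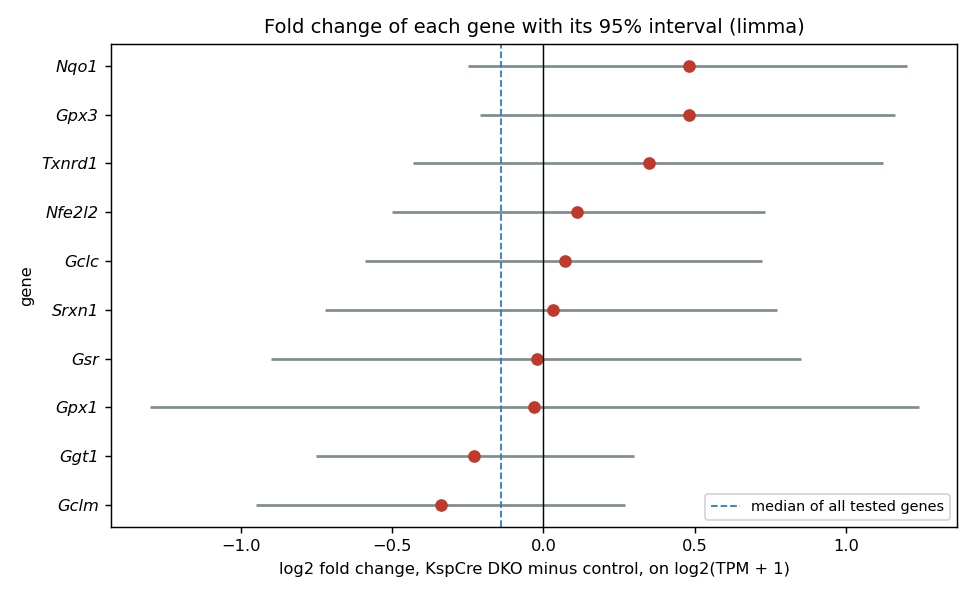
Log2 fold change of each gene, KspCre DKO minus control on log2(TPM + 1), as points with 95% limma intervals, ordered from Nqo1 at the top to Gclm at the bottom. Every interval crosses 0, the solid line, and the dashed line is the median of all tested genes at −0.14.

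With each KspCre DKO library set alone against the 3 control libraries, the sign differed between the libraries for 5 of the 10 members. Those were Gpx1, Gpx3, Nfe2l2, Gsr and Srxn1, each above 0 with replicate 1 and below 0 with replicate 2. The median of all tested genes moved the same way, from 0.13 with replicate 1 to −0.39 with replicate 2. These signs are therefore relative to a shift shared by many genes. Without allowance for that shift, Nqo1 and Gclc had the closest values. Nqo1 was at 0.50 with replicate 1 and 0.45 with replicate 2, and Gclc at 0.09 and 0.04. Txnrd1 stood at 0.61 with replicate 1 and 0.08 with replicate 2. Gclm, at −0.11 and −0.58, and Ggt1, at −0.42 and −0.04, were below 0 with either library. Nqo1, Txnrd1, Gpx3, Nfe2l2, Gsr and Srxn1 lay above the median of all tested genes with either library. Gclm lay below that median with either library, and Gclc, Ggt1 and Gpx1 changed side. None of these fits called a member, and each assumes that the lone KspCre DKO library varies like the controls.

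**Figure D3:**
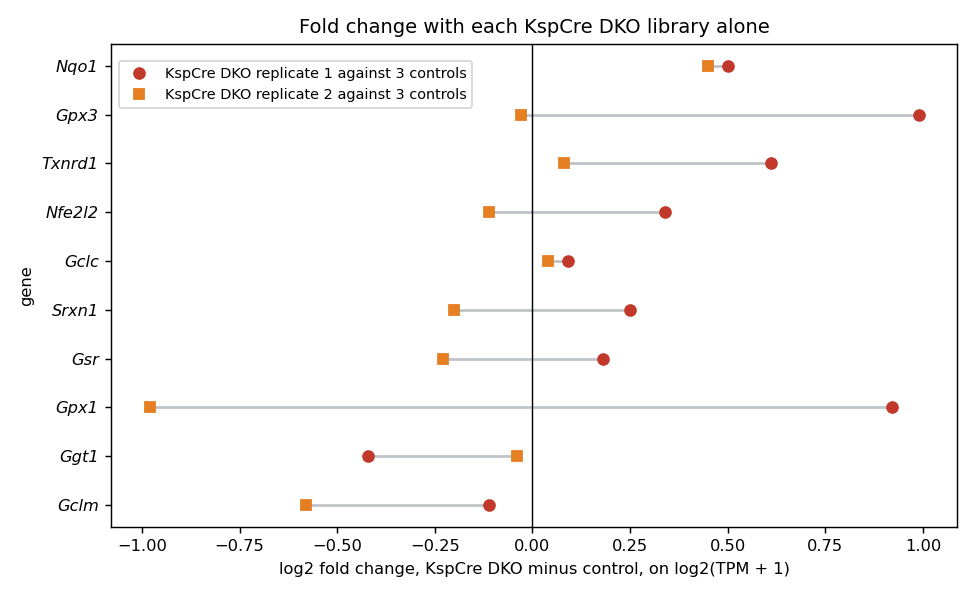
Log2 fold change of each gene on log2(TPM + 1) with only KspCre DKO replicate 1 (circles) or only KspCre DKO replicate 2 (squares) set against the 3 control libraries. The grey bar joining the symbols is longest for Gpx1, from −0.98 to 0.92, and short for Nqo1 and Gclc.

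Of 24 other classical Nrf2 targets, 20 were tested and 0 called. Of the 20, 14 lay above 0 and 6 below, with a median log2 fold change of 0.13, and these counts were the same with median-of-ratios scaling (median 0.23) and quantile normalization (median 0.27). At an unadjusted p below 0.05, 4 were higher and 2 lower in KspCre DKO kidneys, beside 4.16% and 6.15% of all tested genes. Ephx1, the microsomal epoxide hydrolase, was at 197 and 107 TPM in KspCre DKO kidneys, against 69.7, 35.2 and 48.9 TPM in control kidneys (log2 fold change 1.54 ± 0.38 SE, limma adjusted p = 0.207). Gstm1, a glutathione S-transferase that conjugates electrophiles, was at 1057 and 1714 TPM in KspCre DKO kidneys, against 744, 659 and 525 TPM in control kidneys (log2 fold change 1.08 ± 0.28 SE, limma adjusted p = 0.232). Neither gene overlapped between groups, and Gstm1 has close paralogs among which reads can be split. In the other direction, Abcc3, an exporter of conjugated organic anions, was at 20.3 and 23.5 TPM in KspCre DKO kidneys, against 42.6, 52.0 and 44.8 TPM in control kidneys (log2 fold change −1.05 ± 0.27 SE, limma adjusted p = 0.223). Cbr1, a carbonyl reductase, was at 358 and 277 TPM in KspCre DKO kidneys, against 484, 876 and 765 TPM in control kidneys (log2 fold change −1.12 ± 0.30 SE, limma adjusted p = 0.251). Neither of these overlapped, and none of the 4 passed the adjusted test. The other 2 genes with an unadjusted p below 0.05, named after their values were seen, were Abcc4, an organic anion exporter (log2 fold change 1.74, limma adjusted p = 0.26), and the glutathione S-transferase gene Gsta3 (log2 fold change 1.20, limma adjusted p = 0.413). Hmox1, heme oxygenase, was at 15.9 and 5.19 TPM in KspCre DKO kidneys, against 14.03, 8.31 and 13.1 TPM in control kidneys (log2 fold change −0.30 ± 0.46 SE, limma adjusted p = 0.855). Slc7a11, the cystine carrier, was at most 0.14 TPM in each library and was not tested.

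Beside Gpx1, Gpx3, Txnrd1 and Srxn1, the other peroxidases, peroxiredoxins and thioredoxins gave 0 calls among 19 tested of 21 listed. At a limma unadjusted p below 0.05, 2 were higher and 1 lower, beside 4.16% and 6.15% of all tested genes. The list median was −0.15, which quantile normalization turned to 0.04. Sesn3, a sestrin of the stress and nutrient response, had the smallest p of the 6 lists, at 21.1 and 12.1 TPM in KspCre DKO kidneys and 4.90, 2.06 and 2.88 TPM in control kidneys (log2 fold change 2.04 ± 0.40 SE, limma adjusted p = 0.129). Txnrd3, the thioredoxin-glutathione reductase, was at 14.01 and 13.4 TPM in KspCre DKO kidneys and 8.91, 7.84 and 6.94 TPM in control kidneys (log2 fold change 0.73 ± 0.29 SE, limma adjusted p = 0.439). Prdx2, a cytosolic peroxiredoxin that is abundant in red cells, was at 329 and 285 TPM in KspCre DKO kidneys and 452, 435 and 474 TPM in control kidneys (log2 fold change −0.57 ± 0.22 SE, limma adjusted p = 0.435). The groups of these 3 genes did not overlap, and none passed the test. Over the 19 tested, groups did not overlap for 2 upward and 3 downward, beside 10.5% and 15.6% of all tested genes. Gpx7 differed by −0.75 ± 0.35 (SE) on the log2 scale, at a limma adjusted p of 0.52, and Gpx4, the peroxidase of membrane lipids, by −0.16 ± 0.23 (SE), at 0.844. Prdx1, a target with the complete element shown above, was at 427 and 173 TPM in KspCre DKO kidneys, against 535, 227 and 394 TPM in control kidneys (limma adjusted p = 0.785). Its libraries kept the order seen for Gpx1 within each group.

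Genes that deal with superoxide gave 0 calls among 5 tested of 10 listed, 0 with an unadjusted p below 0.05, and a median of −0.07, which median-of-ratios scaling turned to 0.04 and quantile normalization to 0.30. Catalase, Cat, was at 269 and 145 TPM in KspCre DKO kidneys, against 212, 117 and 110 TPM in control kidneys (log2 fold change 0.49 ± 0.38 SE, limma adjusted p = 0.687). The log2 fold changes of Nox4, the hydrogen peroxide producing oxidase of the tubule, and of the superoxide dismutases Sod1 and Sod3 were 0.43, −0.07 and −0.16, with limma adjusted p of 0.854, 0.948 and 0.857.

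Gpx1, Gpx3 and Txnrd1 contain selenocysteine, so the genes of selenium supply and of other selenoproteins were set beside them. All 19 were tested and 0 called, with 3 above 0, 16 below and a median log2 fold change of −0.36. With median-of-ratios scaling 13 lay below 0, and with quantile normalization 14. At a limma unadjusted p below 0.05, 0 were higher, beside 4.16% of all tested genes, and 1 was lower, beside 6.15%. That gene was Pstk, the kinase that prepares selenocysteine on its tRNA, at 17.1 and 12.0 TPM in KspCre DKO kidneys and 21.8, 24.9 and 29.8 TPM in control kidneys (log2 fold change −0.77 ± 0.30 SE, limma adjusted p = 0.427). Selenop, the plasma selenium carrier, was at 207 and 62.9 TPM in KspCre DKO kidneys, against 234, 96.1 and 141 TPM in control kidneys (log2 fold change −0.36 ± 0.53 SE, limma adjusted p = 0.845). It was low in the same libraries as Gpx1. Selenos, Sepsecs and Selenon followed Pstk in order of p, with log2 fold changes of −0.83, −0.59 and −0.76 and limma adjusted p of 0.505, 0.602 and 0.607.

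Over the 6 lists, 118 genes were listed and 100 identifiers tested, with 0 called, 7 higher and 8 lower at an unadjusted p below 0.05, and a median log2 fold change of −0.16 beside −0.14 for all tested genes. Groups did not overlap for 10 of the 100 upward and 19 downward, beside the 10.5% and 15.6% of all tested genes. Glutathione supply, breakdown and use held 9 of the 19 downward ones. At an unadjusted p below 0.05, all tested genes gave 4.16% higher and 6.15% lower. Listed symbols without a row in the tables are not analysed here.

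**Figure D4:**
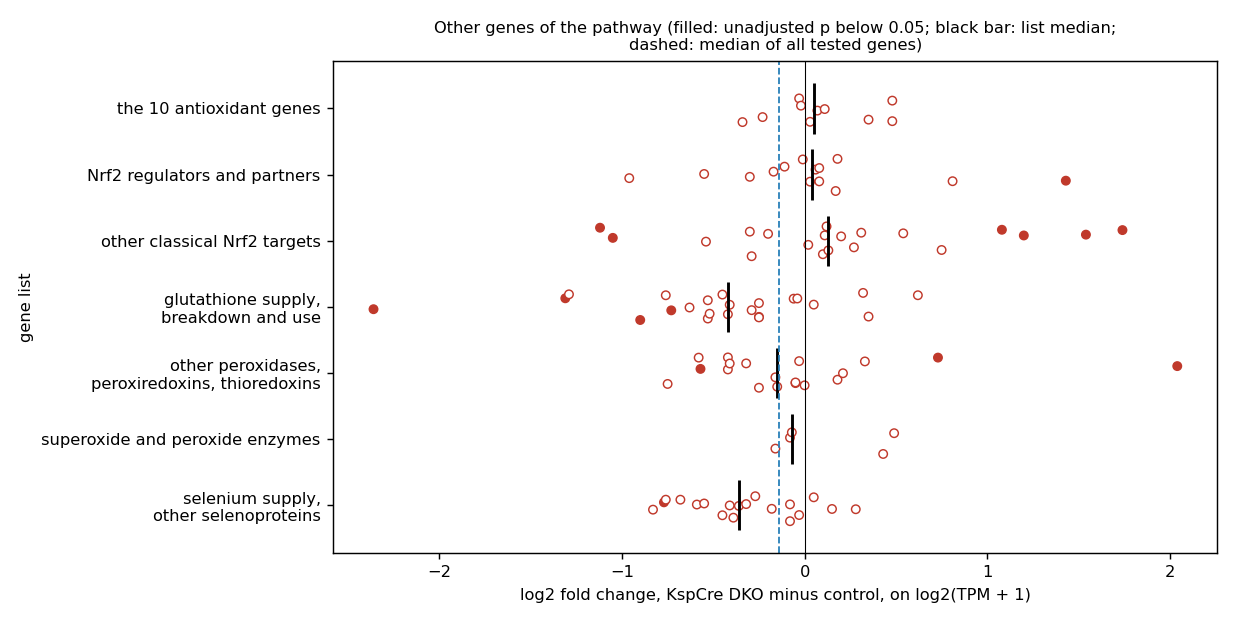
Log2 fold change, KspCre DKO minus control on log2(TPM + 1), of each tested gene in the 10 members and in 6 lists of related genes, 1 circle a gene, filled where the unadjusted p is below 0.05. Black bars are list medians, lowest for glutathione supply at −0.42, and the dashed line is the median of all tested genes at −0.14.

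Summed cell type markers are given beside these values. Thick ascending limb markers summed to 1175 and 657 TPM in KspCre DKO libraries, against 2338, 2405 and 2472 TPM in control libraries, with 10 of 10 tested markers below 0. Collecting duct principal cell markers summed to 2559 and 2547 TPM in KspCre DKO libraries, against 1059, 1130 and 1085 TPM in control libraries, with 6 of 9 above 0. Distal convoluted and connecting tubule markers summed to 5350 and 6236 TPM in KspCre DKO libraries, against 9451, 8319 and 6829 TPM in control libraries. Of the 8 tested, 2 lay above 0 and 6 below. Most of that sum came from S100g and Klk1, and Klk1 overlapped between groups. Slc12a3 was higher without overlap, at 231 and 181 TPM in KspCre DKO libraries and 155, 133 and 127 TPM in controls. The medians of these 3 lists, −1.34, 0.90 and −0.58, were each larger in size than any fold change among the 10 antioxidant genes, although 0 of their markers passed the adjusted test. No marker of the 3 lists or of the proximal tubule list was listed at 0 in any library. Of 17 tested proximal tubule markers, 8 lay above 0 and 9 below, with a median of −0.06, which median-of-ratios scaling turned to 0.06 and quantile normalization to 0.20. Macrophage markers summed to 62.7 and 47.6 TPM in KspCre DKO libraries and 153, 73 and 116 TPM in controls, and fibroblast markers to 83.1 and 121 TPM in KspCre DKO libraries and 231, 109.5 and 261 TPM in controls. The part of cell composition in the antioxidant values was not tested.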

How the data were processed

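Per the labels' protocols, TruSeq libraries were made from polyadenylated RNA of whole kidney. The deposited values are TPM per gene, made by the authors. RSEM 1.3.1, STAR 2.2.1, Trim Galore 0.5.0, Bismark 0.19.1 and mm10 are listed, without roles, in the submitters' processing notes; the strand setting and annotation release are not given there. Since TPM hold no read numbers, counting error is unknown, and a value of 0 can be an estimate that failed. Of 54146 identifiers, 52480 (96.9%) were paired with a symbol. Gene coordinates come from RefSeq for GRCm38.p6, matched by symbol. The 14 bisulfite libraries of the 19 samples are not analysed here.

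The test was limma 3.58.1 (R 4.3.3) on log2(TPM + 1), two-sided, with a trended empirical Bayes prior, on genes whose mean over the 5 libraries reached 1 TPM. P-values were adjusted by Benjamini-Hochberg over all 13963 genes. Fold changes on this scale understate those of low genes. An exact permutation of 2 against 3 libraries cannot give a p below 0.1. The script was tested on simulated data with far larger changes than those of the members, so that test does not bear on differences of their size. Figures were drawn with matplotlib 3.10.9.

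The members, the 6 pathway lists, the 11 marker lists and the tests were chosen with earlier results of these data known. Named were all members, the 4 genes of smallest p in each pathway list and anchors such as Keap1 and Hmox1. The marker lists not reported in the text were intercalated cell, podocyte, endothelial and urothelium, whose medians were −0.60, −0.17, −0.14 and 0.31, with 0 calls. The 16 alternatives were other pseudocounts (0.1 and 5), filters and scalings, other priors, array weights, a replicate block and leaving out each library.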

Additional observations from a re-analysis of the deposited data

How the results depend on the processing

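Under the 16 alternatives 0 of the 10 members were called, and their smallest adjusted p was 0.186, for Gclm. The members' median ranged from −0.07 to 0.30. Of the 160 member values, 140 kept their direction and 20 changed sign without passing the test. The count over all genes, 23 in the fit reported, was 14 with a pseudocount of 0.1, 39 with a pseudocount of 5, 4 without a filter, 42 with quantile normalization, 37 without mitochondrially encoded genes, 9 without a trended prior, 5 with array weights, and 4 to 555 with 1 library left out, where leaving out KspCre DKO replicate 1 gave 555 (89 higher, 466 lower) and leaving out replicate 2 gave 5. Without control replicate 1, 2 or 3 it was 42, 4 or 7. In the lists of related genes 0 were called under the alternatives that kept both KspCre DKO libraries. Without KspCre DKO replicate 1 the log2 fold change was −4.13 for Chac2 and −2.90 for the Nnt identifier ENSMUSG00000116207.1. Both are listed at 0 in KspCre DKO replicate 2, where the other Nnt identifier, ENSMUSG00000025453.18, was at 13.9 TPM.

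Signs turned to 0.11 for Ggt1 with quantile normalization. For Gsr they turned to 0.09 with median-of-ratios scaling, 0.06 with quantile normalization and 0.09 without mitochondrially encoded genes, and for Gpx1 to 0.08, 0.30 and 0.08. For Sod1 these were 0.04, 0.27 and 0.04, and Sod3 was 0.00 with quantile normalization. With 1 library left out, log2 fold changes ranged from −0.98 to 0.92 for Gpx1, −0.03 to 0.99 for Gpx3, −0.11 to 0.34 for Nfe2l2, −0.07 to 0.25 for Gclc, −0.20 to 0.25 for Srxn1, −0.33 to 0.26 for Gsr, −1.32 to 0.21 for Mafg, −0.79 to 1.65 for Nox4, −0.36 to 0.03 for Sod3 and −0.30 to 0.16 for Sod1. The cause was not tested.

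Libraries of the same replicate number shared little deviation from their group means (r = 0.09 for replicates 1 and 0.03 for replicates 2 across genes). With 2 KspCre DKO libraries these deviations are mirror images of each other, so the values cannot decide whether the numbers pair the samples. With the replicate block 75 genes were called over all genes, 47 higher and 28 lower, and 0 members, with Srxn1 at −0.08 and Gsr at 0.00. The depth of the libraries is unknown, and 2 against 3 libraries gave the intervals printed with each gene, the widest for Gpx1 (−1.30 to 1.24).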
